A study of Mus musculus with 81 samples.

Results

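Collagens are the triple-helical proteins of the extracellular matrix, and this account follows all of their genes through mouse thymic lymphomas and normal thymus. The members were every gene of the expression table whose symbol has the form Col, a number, the letter a and a second number. The rule used no measured value and found 44 of the 51826 genes. They comprised 11 fibrillar collagens, 6 basement membrane collagens of type IV and 3 collagens of the basement membrane zone (Col7a1, Col15a1 and Col18a1). The others were 9 FACIT collagens, which attach to fibrils, 6 type VI beaded-filament chains, 3 short-chain collagens, 4 transmembrane collagens, and Col26a1 and Col28a1, which stand outside these classes.

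Bulk RNA-seq was made from 81 libraries of 40 mice. Every mouse, controls included, carried the alleles Plk4(Col1a1), rtTA(Rosa) and centrin-GFP(Rosa) on a mixed background of C57BL/6 x 129S4Sv/Jae. Normal thymus came from 8 untreated p53+/+ mice, with 1 library each. Mouse 819 gave 1 normal thymus from an untreated p53+/- animal, which joined the controls only in 1 alternative fit. The lymphomas were 23 libraries of 10 untreated p53-/- mice, 18 libraries of 9 doxycycline-treated p53-/- mice and 31 libraries of 12 doxycycline-treated p53+/- mice. Treatment lasted 2 weeks from 30 days of age, and the labels used here give no age at collection. Of the 31 lymphomas, 13 were sampled in 4 or 5 biopsies (54 libraries) and 18 in a single one. The mouse was the replicate, with the biopsies of a tumour summed. Lymphoma and p53 genotype changed together against normal thymus, so these cannot be told apart. For both treated groups doxycycline treatment changed with them too. Treated p53+/- and untreated p53-/- lymphomas differed in both genotype and treatment, which cannot be told apart there either. The 3 comparisons with normal thymus shared their 8 controls.

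Collagen chains are made in the endoplasmic reticulum, where prolines and lysines are hydroxylated and chains wind into a triple helix, and procollagen ends are cut off outside the cell. Fibrillar collagens then pack into the fibrils of connective tissue, which in the thymus lie in the capsule, the septa and around vessels and are made mostly by fibroblasts. Type IV collagen forms the sheet-like network of basement membranes beneath endothelium and epithelium. Lymphocytes are not the usual source of either, so in bulk tissue a collagen level also reads how many stromal cells were sampled: fewer cells of a type and less RNA per cell cannot be told apart here.

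Library depth ranged from 1.03 to 26.87 M counts, and 2 of the 81 libraries, both of treated p53-/- mouse 857, held fewer than 3 M. Labelled males were 4 of the 8 normal mice and 9 of the 10 untreated p53-/- mice. They were 4 of the 9 treated p53-/- and 3 of the 12 treated p53+/- mice, so sex and group were partly confounded. The labelled sex went against Xist and Y-linked genes in 3 mice (328, 869 and 870). One normal library, that of mouse 387, stood apart. Its 8 fibroblast markers summed to 1154 CPM (TMM-scaled counts per M mapped counts) against 107 to 169 in the 7 other normal mice, and its 8 endothelial markers to 774 CPM against 171 to 301. Its 6 fat markers summed to 9758 CPM against 700 to 4098, whereas its thymic epithelial markers reached 140 CPM against 1111 to 1968 and its T-cell markers 1138 CPM against 5328 to 7973. Comparisons with normal thymus are therefore given with and without mouse 387. The untreated p53-/- lymphoma of mouse 881 had 2828 CPM of B-cell markers and 190.2 CPM of T-cell markers, with the T-cell receptor chains Cd3e at 1.77 CPM and Cd3d at 2.02 CPM. Where its values bear on a result they are given.

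Of the 44 members, 34 passed the filter on low counts in the comparison with normal thymus. The other 10 were Col11a1, Col24a1, Col4a3, Col9a1, Col9a2, Col19a1, Col22a1, Col10a1, Col13a1 and Col25a1. Among these, Col11a1, a fibrillar chain of cartilage, was below 1 CPM in every mouse but 899, an untreated p53-/- lymphoma, where it reached 22.8 CPM. Per kilobase of merged exons of all annotated transcripts of a gene, which can exceed the length of any 1 transcript, normal thymus was led by Col4a1 with a median of 13.5 CPM per kb, Col4a2 with 11.1 and Col6a1 with 10.9. Col3a1 stood at 5.82 CPM per kb there and Col1a1 at 3.01. The order differed in the lymphomas, where Col3a1 had the highest median per kilobase in all 3 groups. It stood at 16.2 CPM per kb in untreated p53-/-, 28.3 in treated p53-/- and 13.3 in treated p53+/- tumours, and Col1a1 at 15.5, 18.7 and 11.4. Col27a1, at 2.01 CPM per kb in normal thymus, reached 11.1, 13.9 and 12.7.

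Collagen I, the heterotrimer of Col1a1 and Col1a2 chains, is the main fibril former of connective tissue. Col1a1 (ENSMUSG00000001506, GRCm38 chr11:94936224-94953042, plus strand) ranged from 10.2 through a median of 19.7 to 333 CPM in the 8 normal mice, and the 7 other than mouse 387 did not exceed 32.7 CPM. It ranged from 23.6 through 102 to 224 CPM in the 10 untreated p53-/- mice, from 34.1 through 123 to 185 CPM in the 9 treated p53-/- mice, and from 16.3 through 74.5 to 642 CPM in the 12 treated p53+/- mice. All lymphomas lay within the range that mouse 387 opens, except treated p53+/- mouse 266 at 642 CPM. Against the 7 other normal mice, 9 of 10, 9 of 9 and 7 of 12 lymphomas were above the highest. With all 8 normal mice, edgeR's quasi-likelihood test gave Col1a1 a log2 fold change of 1.93 ± 0.68 (SE) in untreated p53-/- lymphoma (adjusted p = 0.0208), and 1.22 (adjusted p = 0.0999) and 1.02 (adjusted p = 0.152) in the treated p53-/- and p53+/- groups. Without mouse 387 these became 2.82 (adjusted p = 0.000369), 2.38 (adjusted p = 0.00166) and 2.41 (adjusted p = 0.00233). The untreated call with all 8 normal mice did not pass without the sex covariate or with single-biopsy tumours only.

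Col1a2, the second chain of collagen I, followed the same order. Its medians were 35.2 CPM in normal thymus and 135, 161 and 94.1 CPM in the 3 lymphoma groups. It rose by 1.44 ± 0.57 on the log2 scale in untreated p53-/- lymphoma (edgeR adjusted p = 0.0392), and its values of 0.87 and 0.74 in the treated groups did not pass (adjusted p = 0.165 and 0.224). Without mouse 387 it passed in all 3, at 2.24, 1.92 and 1.95. The untreated call with all 8 normal mice was lost under 6 alternative settings and without any of 11 single mice.

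Collagen III, a homotrimer of Col3a1 chains that runs with collagen I in distensible tissue and reticular fibres, is encoded by ENSMUSG00000026043 at GRCm38 chr1:45311538-45349706, plus strand. Col3a1 ranged from 31.9 through 57.1 to 838 CPM in normal thymus, where the 7 mice other than 387 stayed at or under 90.0 CPM. In the lymphomas it ranged from 43 through 159 to 449 CPM (untreated p53-/-), from 64.1 through 278 to 372 CPM (treated p53-/-) and from 21.6 through 131 to 1406 CPM (treated p53+/-). The groups overlapped: 8 of 10, 8 of 9 and 7 of 12 lymphomas lay above those 7 normal mice. None of its 3 contrasts passed with all 8 normal mice, at log2 1.27, 0.75 and 0.49 (edgeR adjusted p = 0.102, 0.296 and 0.486). Without mouse 387 all 3 passed, at 2.05 ± 0.57 (adjusted p = 0.00416), 1.76 ± 0.58 (0.0117) and 1.70 ± 0.60 (0.0202).

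**Figure D1:**
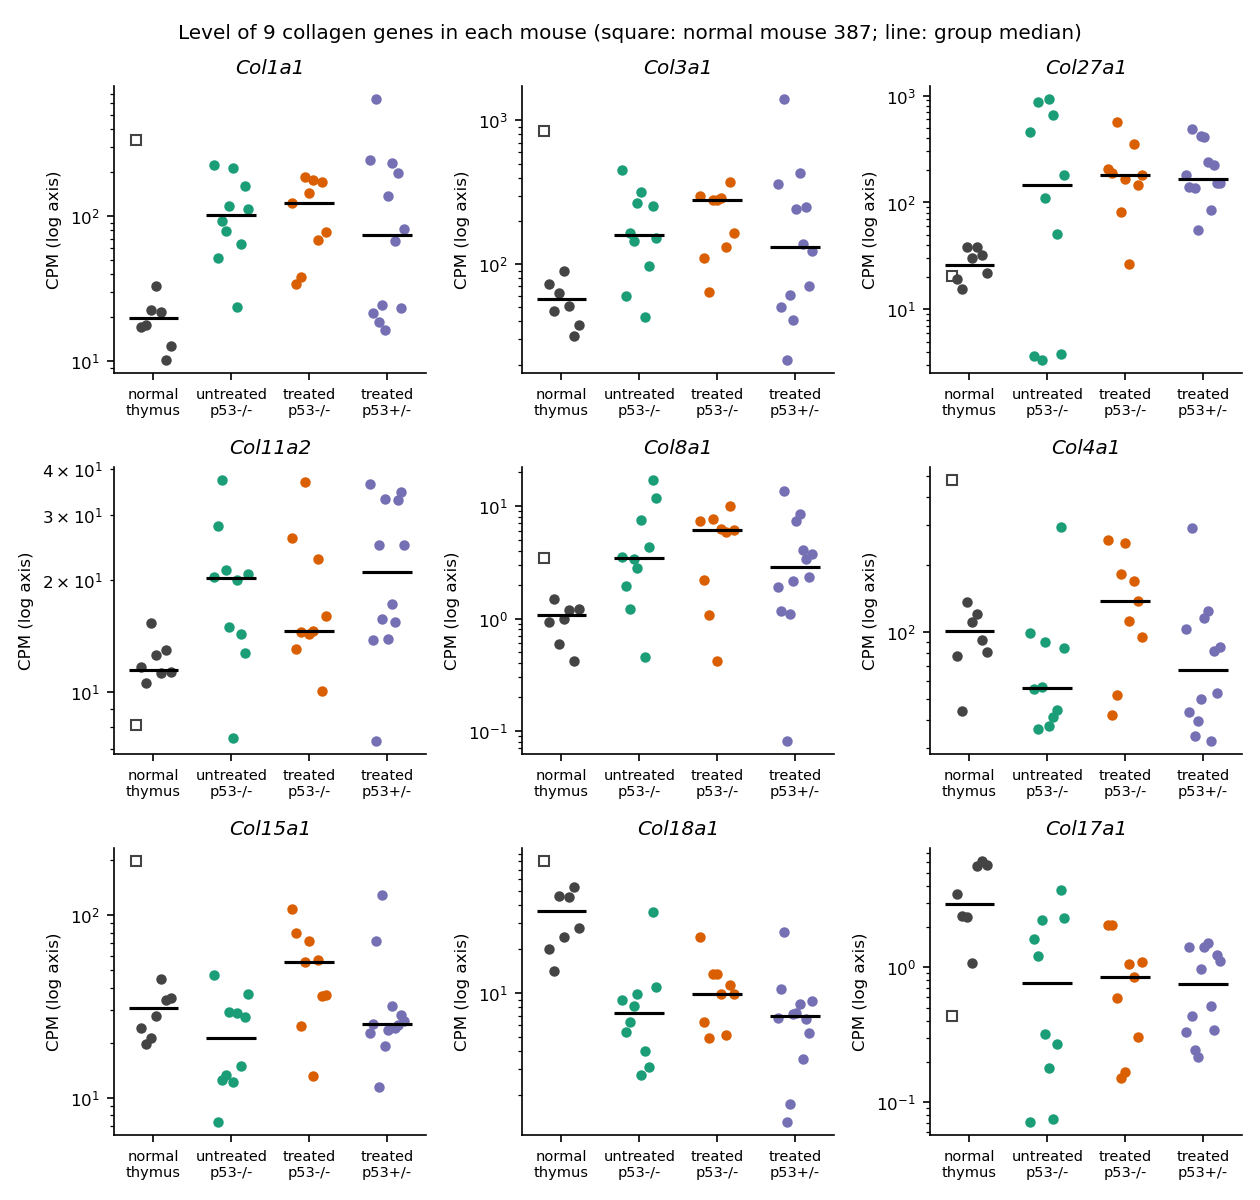
Level of 9 collagen genes in each mouse, in CPM on a log axis, by group; each point is 1 mouse, the line is the group median and the open square is normal mouse 387. The plot shows Col27a1 above all 8 normal mice in 27 of 31 lymphomas and Col18a1 below them in 28 of 31, while Col1a1 and Col3a1 in mouse 387 lie among the highest lymphomas.

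Col27a1, Col11a2 and Col8a1 were higher in all 3 lymphoma groups, with and without mouse 387. Col27a1 encodes the fibrillar collagen XXVII and Col11a2 a chain of collagen XI, both best known from cartilage, and Col8a1 a short-chain collagen of vessel walls and corneal basement membrane. Because these genes moved in the same direction, the 120 bases before the RefSeq start of each (GRCm38.p6, in the direction of transcription) are printed, with that of Col3a1, whose call depended on a single control. The capitals mark TATAAA, the core of the TATA box, in Col3a1, and elsewhere GGGCGG, the GC box, or its reverse complement CCGCCC; both strands were searched and no matches overlap.
Col3a1 (chr1:45311418-45311537, plus strand): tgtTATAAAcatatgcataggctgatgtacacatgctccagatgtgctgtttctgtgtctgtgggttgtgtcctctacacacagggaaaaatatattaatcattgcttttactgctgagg
Col27a1 (chr4:63215292-63215411, plus strand): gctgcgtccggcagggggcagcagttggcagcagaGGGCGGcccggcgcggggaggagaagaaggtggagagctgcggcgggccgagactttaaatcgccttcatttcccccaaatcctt
Col11a2 (chr17:34039018-34039137, plus strand): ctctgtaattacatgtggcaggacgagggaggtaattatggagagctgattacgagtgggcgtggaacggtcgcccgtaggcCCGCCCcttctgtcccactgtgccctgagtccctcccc
Col8a1 (chr16:57754738-57754857, minus strand): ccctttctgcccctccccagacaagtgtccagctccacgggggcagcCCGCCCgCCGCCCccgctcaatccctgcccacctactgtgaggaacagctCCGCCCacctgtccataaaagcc
Col27a1 and Col11a2 held 1 GC box each, 85 and 38 bases before the start, and Col8a1 held 3, at 73, 66 and 23 bases. Col3a1 had none and its TATAAA began 117 bases before the start. Of all 32851 windows of 120 bases in the promoter table, 26.5% held GGGCGG and 6.3% TATAAA. Guanine and cytosine made up 40% of the Col3a1 window and 65.8%, 60.0% and 67.5% of the others. Such matches describe letters only. The RefSeq start of Col27a1 (63215412) lies downstream of the first base of the gene in GENCODE M21 (63214004), and that of Col11a2 (34039138) lies upstream of it (34039437).

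Of these genes Col27a1 (ENSMUSG00000045672, chr4:63214004-63334991, plus strand) had the largest change. It ranged from 15.4 through 26.2 to 38.7 CPM in the 8 normal mice, mouse 387 included at 20.7 CPM. It ranged from 3.36 through 145 to 928 CPM in untreated p53-/-, from 26.6 through 181 to 565 CPM in treated p53-/- and from 55.1 through 166 to 483 CPM in treated p53+/- lymphomas. In 7 of 10, 8 of 9 and 12 of 12 lymphomas the level was above all 8 normal mice, and in untreated mice 120, 202 and 881 it was below all of them. The log2 fold change was 3.49 ± 0.80 in untreated p53-/- (edgeR adjusted p = 0.000654), 2.95 ± 0.77 in treated p53-/- (0.00175) and 3.11 ± 0.77 in treated p53+/- lymphoma (0.00098), which are 11.3-fold, 7.70-fold and 8.63-fold. Without mouse 387 the values were 3.58, 3.04 and 3.19, and without mouse 881 the untreated contrast was 3.63. A limma voom fit over all biopsies, with the mouse as a block, gave 1.43 for the untreated contrast, which did not pass. The gene hosts the microRNA gene Mir455.

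Col11a2 and Col8a1 changed less. Col11a2 (chr17:34039437-34066685, plus strand) had 8.13 to 15.3 CPM in normal thymus with a median of 11.5, and medians of 20.3, 14.6 and 21.1 CPM in the lymphoma groups. It was above all normal mice in 6 of 10, 4 of 9 and 9 of 12 lymphomas. Its log2 fold changes were 0.75 ± 0.29 (edgeR adjusted p = 0.0384), 0.67 ± 0.29 (0.05 as rounded, just under the threshold) and 0.95 ± 0.28 (0.00551). The treated p53-/- value did not pass under 6 alternative settings or without any of 21 single mice, nor the untreated one under 4 settings or without any of 9 single mice. Both counts of settings included a cutoff of 1 on the absolute log2 fold change, which all 3 values missed by their size alone. The treated p53+/- call failed only that cutoff. Col8a1 (chr16:57624258-57754737, minus strand) had a median of 1.08 CPM in normal thymus, at most 1.48 CPM outside mouse 387, which had 3.44 CPM. Its lymphoma medians were 3.45, 6.10 and 2.86 CPM, and 8 of 10, 7 of 9 and 9 of 12 tumours lay above those 7 normal mice. It rose by 2.50 ± 0.71, 2.03 ± 0.66 and 1.54 ± 0.63 on the log2 scale (edgeR adjusted p = 0.00458, 0.00985 and 0.0402). When only single-biopsy tumours were kept, none of its 3 contrasts passed, and the treated p53+/- call was also lost without the filter, with voom and without any of 10 single mice.

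Among the other fibrillar genes, collagen V chains regulate the start and width of collagen I fibrils. Col5a1, at a median of 7.91 CPM in normal thymus and 18.7, 24.8 and 12.9 CPM in the lymphoma groups, passed in no contrast of the main fit with all 8 normal mice. Its untreated contrast was called higher under 2 alternative settings, leaving out mouse 387 among them. Without that mouse it rose in both p53-/- groups, by 1.8 ± 0.52 (edgeR adjusted p = 0.00537) and 1.25 ± 0.52 (0.045), and had 1.24 in treated p53+/- lymphoma (0.0518). Col5a2, whose gene lies 24614 bases from Col3a1 on the opposite strand, passed without mouse 387 in the untreated group (1.15, adjusted p = 0.02). Col5a3 and Col2a1, the cartilage collagen, passed in no contrast in either fit.

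Counted over the members, the untreated p53-/- contrast gave 5 higher and 3 lower collagens of 34 tested at an edgeR adjusted p under 0.05, against a background of 23.2% higher and 17.5% lower among all 17843 genes. The treated p53-/- contrast gave 3 and 6 against 25.4% and 26.7%, and the treated p53+/- contrast 3 and 11 against 25.6% and 25.3%. Only the lower count in treated p53+/- tumours was a larger share than its background. Without mouse 387, 35 members were tested and the counts were 9 and 3 (background 25.9% and 14.4%), 7 and 3 (27.8% and 20.8%), and 6 and 6 (27.6% and 18.4%). These shares did not exceed their backgrounds. The 9 higher in the untreated contrast included Col26a1, at 4.16 CPM in untreated mouse 881 and a median of 0.151 CPM in the other untreated mice. With mouse 387 in the fit, the median log2 fold change of the members tested was -0.28, -0.44 and -0.72, beside 0.08, -0.04 and -0.00 over all genes. The medians over all genes were 0.208, 0.105 and 0.151 without that mouse, and those of all members are given only with it. Without the library scaling factors the median of all genes in the untreated contrast moved from 0.08 to -0.05, and the share of called genes that were higher moved from 56.9% to 46.7%. No fibrillar gene was called lower in any of the 3 contrasts: 4, 2 and 2 of the 9 tested were higher, with medians of 1.22, 0.67 and 0.49, and without mouse 387 the counts were 7, 6 and 5 with medians of 1.8, 1.25 and 1.24.

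**Figure D2:**
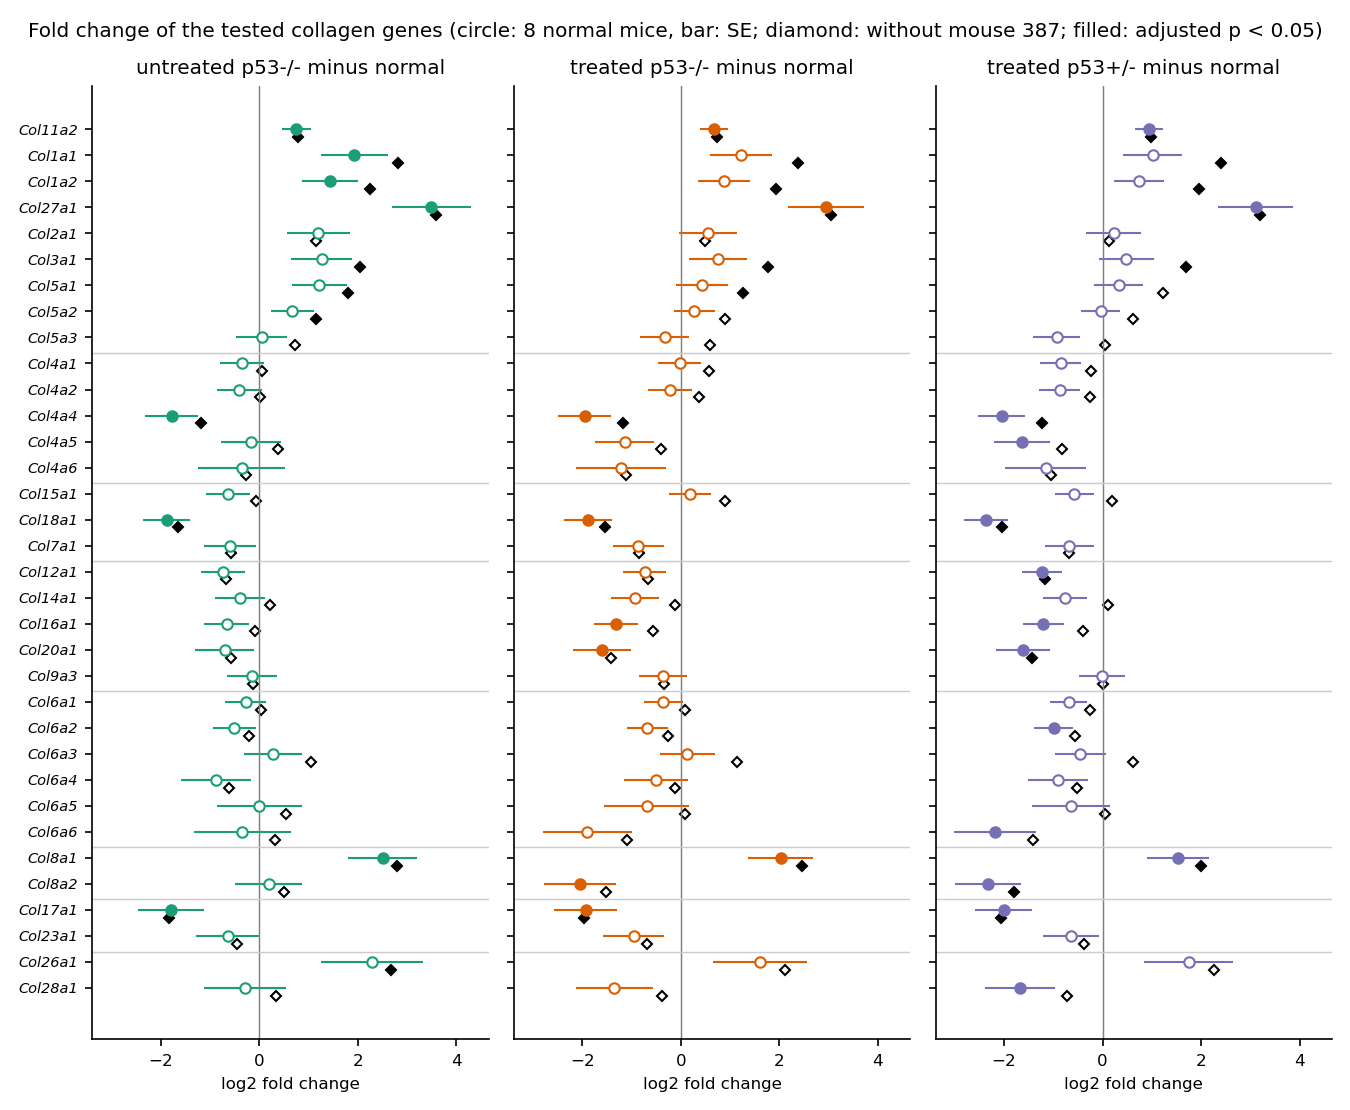
Log2 fold change of the 34 tested collagen genes against normal thymus in the 3 lymphoma groups, ordered by class; circles with SE bars are the fit with 8 normal mice, filled where the adjusted p was under 0.05, and diamonds the fit without mouse 387. The diamonds of Col1a1, Col1a2 and Col3a1 lie to the right of their circles, at 1.70 or more, while those of Col27a1 and Col18a1 stay near theirs.

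The main chains of basement membrane collagen IV, Col4a1 and Col4a2, are transcribed from a shared region of chromosome 8 in opposite directions, where their annotated genes overlap by 22 bases. Neither passed in any contrast of the fit reported here. In treated p53+/- lymphoma both were called lower without treated p53+/- mouse 266 (-1.05 and -1.10) and without untreated mouse 881 (-0.86 and -0.88), and Col4a2 also with limma voom over all biopsies (-0.91). Col4a1 ranged from 43.9 through 101 to 479 CPM in normal thymus (at most 135 CPM outside mouse 387). In the lymphomas it ranged from 36.8 through 56.0 to 294 CPM, from 42.3 through 137 to 258 CPM and from 32.3 through 67.5 to 291 CPM. The groups overlapped throughout. Its log2 values were -0.35, -0.03 and -0.85 (edgeR adjusted p = 0.0832 for the last) with mouse 387 and 0.06, 0.57 and -0.23 without, so that the sign for both p53-/- groups depended on that mouse, and for the treated p53-/- group also on the scaling (0.01 without scaling factors). Col4a2 had -0.40, -0.22 and -0.87 with it and 0.02, 0.37 and -0.25 without.

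The rarer type IV chains are tissue-restricted, and the trimer of Col4a3, Col4a4 and Col4a5 is best known from the kidney glomerulus. Col4a4 fell in all 3 groups, from a median of 1.19 CPM to 0.438, 0.357 and 0.391 CPM. The log2 fold changes were -1.78, -1.96 and -2.04 (edgeR adjusted p = 0.00839, 0.00242 and 0.000559), and -1.19, -1.18 and -1.23 without mouse 387, all still under the threshold. The untreated call was lost with single-biopsy tumours only and with only the 2 groups in the fit. Col4a5 fell in treated p53+/- lymphoma only with mouse 387 in the fit (-1.63, adjusted p = 0.0147).

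Collagens XV and XVIII sit where basement membranes meet connective tissue, and collagen XVIII is the source of the fragment endostatin. Col18a1 (chr10:77052178-77166548, minus strand) had 14.1 to 80.3 CPM in normal thymus with a median of 36.8. It had 2.74 through 7.26 to 36.1 CPM in untreated p53-/-, 4.90 through 9.81 to 24.3 CPM in treated p53-/- and 1.31 through 6.97 to 26.2 CPM in treated p53+/- lymphomas. In 9 of 10, 8 of 9 and 11 of 12 tumours it lay below all 8 normal mice, the highest untreated value being that of mouse 881. It fell by 1.88 ± 0.48, 1.89 ± 0.48 and 2.37 ± 0.44 on the log2 scale (edgeR adjusted p = 0.00196, 0.00135 and 3.38e-05), or 3.68-fold, 3.70-fold and 5.18-fold. Without mouse 387 it fell by 1.64, 1.54 and 2.04 and passed in each group, and without mouse 881 the untreated value was -2.40. Its gene overlaps Slc19a1, and whether counting used strand is not given in the sources used here. Col15a1, with medians of 31 CPM in normal thymus and 21.3, 55.3 and 25.2 CPM in the lymphoma groups, and Col7a1, the anchoring-fibril collagen, passed in no contrast.

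Col17a1, a transmembrane collagen that anchors epithelial cells to their basement membrane, fell in all 3 groups. Its medians were 2.95 CPM in normal thymus and 0.764, 0.847 and 0.747 CPM in the lymphomas, with log2 fold changes of -1.79, -1.93 and -2.01 (edgeR adjusted p = 0.0322, 0.0118 and 0.00444), and it passed in each group without mouse 387 too. With voom over all biopsies neither treated call passed, and the untreated call was lost under 3 settings and without any of 6 single mice. Mouse 387 had the lowest normal value, 0.438 CPM. The 8 thymic epithelial markers moved with it: their sum was 1111 to 1968 CPM in the 7 other normal mice and 140 CPM in mouse 387, and its medians were 74.7, 76.6 and 67.8 CPM in the lymphoma groups. Of the 8, 5, 7 and 6 were called lower in the 3 contrasts, where 17.5%, 26.7% and 25.3% of all genes were. Their part in the result was not tested.

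Of the FACIT collagens, Col12a1, which binds collagen I fibrils, fell in treated p53+/- lymphoma by 1.24 ± 0.41 (edgeR adjusted p = 0.0115; 0.0248 without mouse 387), from a median of 19.3 CPM to 6.98 CPM. Col20a1 fell in both treated groups, by 1.6 and 1.61 (adjusted p = 0.0234 and 0.0137), and passed without mouse 387 in the p53+/- group (0.0391). Col16a1 fell in both treated groups only with mouse 387 in the fit. Col14a1, another fibril-bound collagen, passed in none. The type VI chains Col6a1, Col6a2 and Col6a3, which form beaded microfibrils between cells and fibrils, had group medians between 7.35 and 50.2 CPM. Of the 6 type VI genes, Col6a2 and Col6a6 fell in treated p53+/- lymphoma with mouse 387 in the fit (log2 -0.99 and -2.19) and neither passed without it. Col6a2 lost its call under 7 alternative settings in all and without any of 10 single mice, and Col6a6 under 3 settings. The 7 included a cutoff of 1 on the absolute log2 fold change, which -0.99 missed by its size alone. The short-chain gene Col8a2 fell in both treated groups, by 2.05 and 2.33 (adjusted p = 0.0181 and 0.00406), at levels of at most 3.13 CPM in every mouse, and passed without mouse 387 in the p53+/- group (0.042). Its treated p53-/- call was lost under 3 alternative settings, leaving out mouse 387 among them, and its p53+/- call under 1. Col28a1 also fell in treated p53+/- lymphoma, by 1.68 (adjusted p = 0.0457), and lost this call under 5 alternative settings, leaving out mouse 387 among them, and without any of 13 single mice.

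Fibrillar collagen was next set against basement membrane collagen within each mouse. The 11 fibrillar genes summed to a median of 185.9 CPM in normal thymus (136.5 to 1859) and to 723.4, 770.1 and 551 CPM in the lymphomas (untreated p53-/-, then treated p53-/-, then treated p53+/-). The 6 type IV genes summed to 182.8, 91.0, 212.6 and 113.3 CPM. The ratio of the sums had a median of 1.1 in normal thymus, from 0.847 to 2.26 with mouse 387 the highest, and 0.927 in the p53+/- normal mouse 819. It had medians of 4.90 (1.46 to 23.3), 3.80 (2.17 to 7.88) and 5.93 (3.02 to 7.67) in the lymphoma groups. In 28 of 31 lymphomas (9 of 10, 7 of 9 and 12 of 12) the ratio was above all 8 normal mice. The highest ratios were those of untreated mice 562 (23.3), 157 (20.7) and 637 (11.9). All 3 tumours had type IV sums below every normal mouse, at 74.9, 64.2 and 66.9 CPM, and Col27a1 at 928, 865 and 653 CPM. Mouse 562 also stood apart in the 8 muscle and cartilage markers, which summed to 1737 CPM there and to at most 176 CPM in every other mouse, with the muscle genes Acta1 at 672 CPM and Myh1 at 659 CPM. Of these markers 3 were tested: Acan, Acta1 and Ckm were called higher in untreated p53-/- and Acan in treated p53-/- lymphoma, and none in treated p53+/- lymphoma. Among all genes 23.2%, 25.4% and 25.6% were higher. Ckm was at 261 CPM in mouse 562, and in every other mouse Acta1 was at most 5.79 CPM and Ckm at most 4.705 CPM. Without mouse 387 4 of these markers were tested, with Acta1 and Ckm higher in untreated p53-/-, and Acan higher and Matn1 lower in treated p53-/- lymphoma. The all-gene shares were then 25.9%, 27.8% and 27.6% higher and 14.4%, 20.8% and 18.4% lower. Acan, the main proteoglycan of cartilage, reached 175 CPM in untreated mouse 899, 175 CPM in treated p53-/- mouse 490 and 100.8 CPM in treated p53+/- mouse 894, against at most 9.25 CPM in normal thymus. The part of these markers in the ratios and in the Col27a1 and Col11a2 results was not tested. Without mouse 562 the Col27a1 log2 fold change in untreated p53-/- lymphoma was 3.2. With Col27a1 left out of the fibrillar sum, 22 of 31 lymphomas remained above all normal mice. The sums follow each gene's length and abundance and carry no test.

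**Figure D3:**
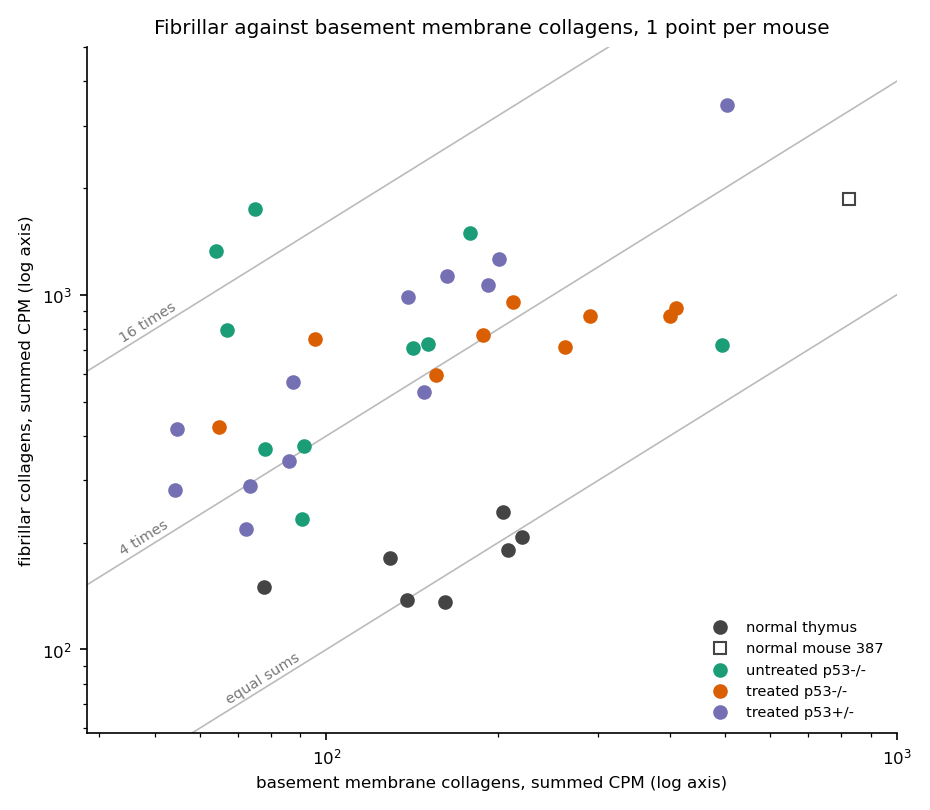
Summed CPM of the 11 fibrillar genes against that of the 6 basement membrane genes, both on log axes, with 1 point per mouse coloured by group, the open square for normal mouse 387 and grey lines at equal sums and at 4 and 16 times. Normal mice lie near the line of equal sums, with a ratio of at most 2.26, and 28 of 31 lymphomas lie above all of them.

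Collagen XXVII made up a median of 14.2% of the fibrillar sum in normal thymus and 20.2%, 22.2% and 27% in the 3 lymphoma groups. Its share ran from 0.525% in untreated mouse 881 to 82.2% in untreated mouse 637, so the genes that made up the fibrillar sum differed widely between tumours. Col1a1, Col1a2 and Col3a1 together made up 11.8% of it in mouse 637 and 85.4% in treated p53-/- mouse 663.

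Stromal marker sums moved beside these results as follows. The fibroblast sum had medians of 148 CPM in normal thymus and 120, 134 and 185 CPM in the lymphoma groups, with ranges of 107 to 1154, 42.5 to 907, 78.0 to 442 and 88.9 to 437 CPM. In each contrast 1 of the 8 fibroblast markers was called higher, Pdgfrb, and Cd34, Clec3b, Dpt and Pi16 were called lower, with list medians of -1.21, -1.36 and -1.46. Among all genes 23.2%, 25.4% and 25.6% were higher and 17.5%, 26.7% and 25.3% lower (25.9%, 27.8% and 27.6%, and 14.4%, 20.8% and 18.4%, without mouse 387). Without mouse 387 Pdgfrb was higher and Cd34, Clec3b and Pi16 were lower in both p53-/- groups, Pdgfra and Pdgfrb were higher and Cd34 and Clec3b lower in treated p53+/- lymphoma, and the list medians were -0.35, -0.43 and -0.39. Pdgfrb, which mural cells also express, reached 835 CPM in untreated mouse 157, 347 CPM in treated p53-/- mouse 663 and 251 CPM in treated p53+/- mouse 862, against at most 55.6 CPM in normal thymus. The endothelial sum had medians of 252.5 CPM in normal thymus and 147, 201 and 154 CPM in the lymphomas. Of the 8 endothelial markers 5, 4 and 6 were called lower and 0, 1 and 0 higher, and without mouse 387 4, 1 and 4 lower and 1 higher in each. Of the 6 mural cell markers 2, 2 and 4 were lower (2, 2 and 3 without mouse 387) and 1 higher in each contrast, and of the 4 mesothelial markers 3, 4 and 4 were lower (1, 1 and 2 without mouse 387). The fat sum had medians of 2038 CPM in normal thymus and 52.7, 74.4 and 62.4 CPM in the lymphomas, with all 6 fat markers called lower in each contrast. Of the fibroblast and endothelial markers only Pi16 was at 0 in any mouse (1 of 40), and of the thymic epithelial markers Foxn1, Psmb11 and Krt5 were (7, 9 and 1 of 40). The part of these cells in the collagen results was not tested.

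No collagen passed the test between any 2 lymphoma groups. At an edgeR adjusted p under 0.05, 0 of 16389 genes (0%) and 0 of 29 collagens tested were called in each of the 3 comparisons. At an unadjusted p under 0.05 there were 1917, 864 and 1037 genes for treated against untreated p53-/-, treated p53+/- against treated p53-/-, and treated p53+/- against untreated p53-/-, with 1 collagen in each. These were Col15a1, higher by 0.90 ± 0.41 in treated than in untreated p53-/- tumours (adjusted p = 0.399), Col4a1, at -0.82 ± 0.40 in treated p53+/- against treated p53-/- (0.94), and Col4a5, at -1.45 ± 0.61 in treated p53+/- against untreated p53-/- (0.777). DESeq2 called 75, 12 and 3 genes and 0 collagens. Without the sex covariate edgeR called 0, 0 and 21 genes and 0 collagens. In treated p53+/- against untreated p53-/- lymphoma it then had 2350 genes at an unadjusted p under 0.05. For Col1a1 the difference between treated and untreated p53-/- lymphoma was -0.63 with a 95% interval of -1.74 to 0.48, and for Col27a1 it was -0.55 with an interval of -2.05 to 0.95. The direction of these 2 differences was thus not resolved with 9 and 10 mice.

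Biopsies of the same tumour showed which collagens varied from place to place. In the 4 biopsies of treated p53+/- mouse 884, Col3a1 was at 69.8, 660, 688 and 593 CPM and Col1a1 at 42.3, 352, 402 and 244 CPM, so that 1 biopsy was low for both. Col27a1 in the same biopsies was at 239, 220, 244 and 229 CPM, and did not share that low biopsy. The low biopsy was also the lowest of the 4 for Col5a2 (20.9 CPM against 43.8 to 71.3), Col4a1 (59.3 CPM against 107 to 186) and Col6a1 (41.9 CPM against 85.8 to 115). The fibroblast markers summed to 299, 325, 339 and 244 CPM in the 4 biopsies. Serping1 (144 CPM) and Pdgfrb (115 CPM) were the highest of these markers in the summed tumour. By contrast the 4 biopsies of treated p53+/- mouse 903 held Col1a1 at 208, 170, 190 and 211 CPM.

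Over the 13 tumours, the highest biopsy exceeded the lowest by a median of 3.36 times for Col3a1 (up to 9.86 in mouse 884), 3.16 times for Col1a1 (up to 9.51, same mouse), 2.38 times for Col27a1 (up to 8.83 in mouse 881) and 2.19 times for Col4a1 (up to 5.18 in mouse 857). The Col27a1 extreme came from low values, 2.58, 0.999, 2.25 and 8.82 CPM in mouse 881. The Col4a1 extreme came from values of 286.5, 55.3, 121 and 117 CPM in mouse 857, of which the second is the library of 1.03 M counts. Summed over classes, the fibrillar genes differed between biopsies by 1.19 times in mouse 903 to 4.11 times in mouse 884, and the type IV genes by 1.31 times in mouse 881 to 5.24 times in mouse 857.

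**Figure D4:**
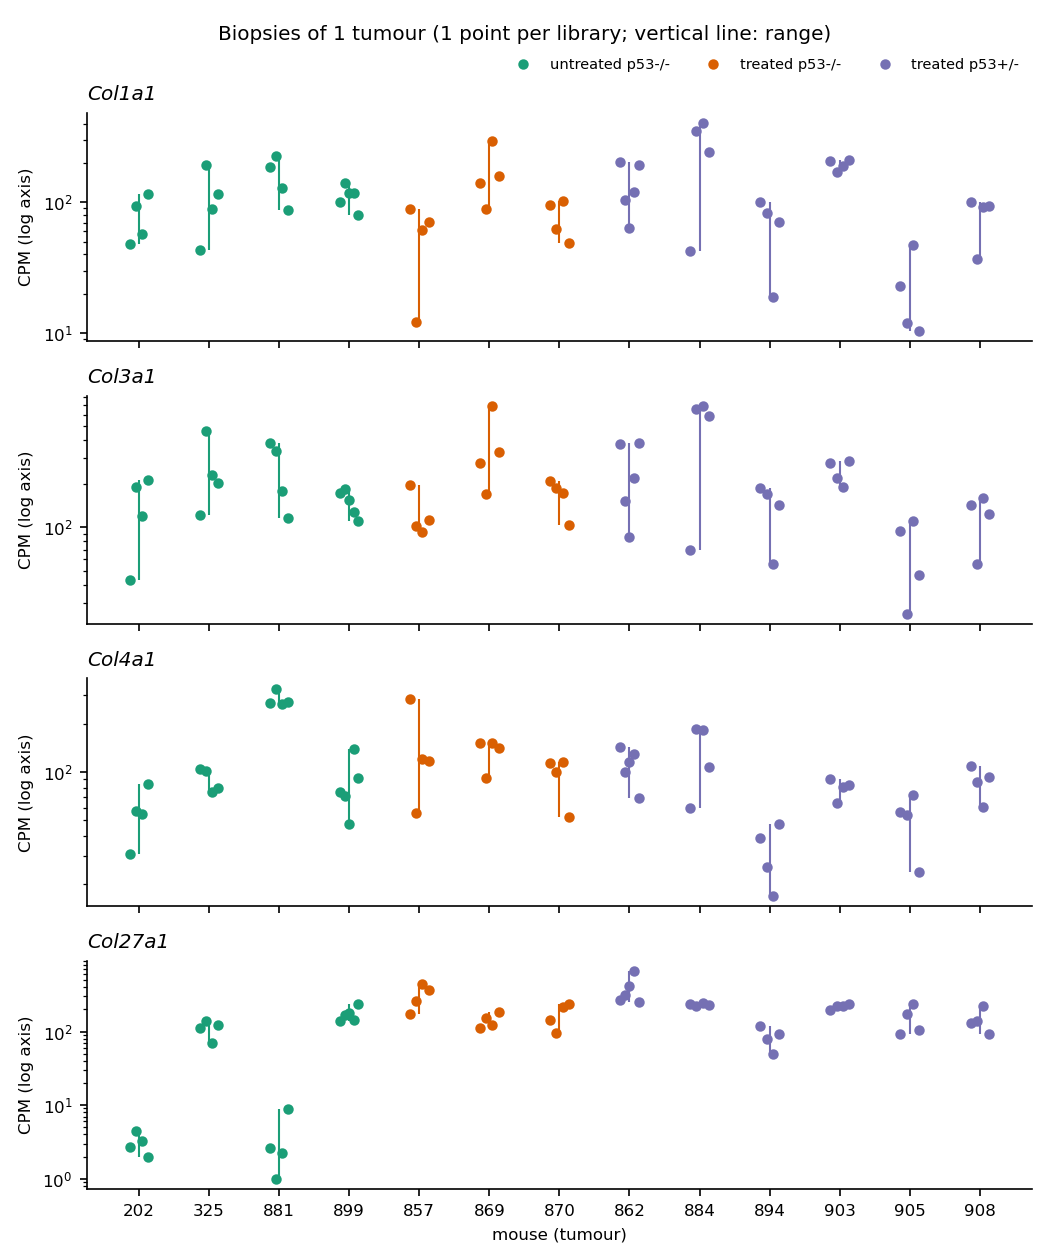
Level of Col1a1, Col3a1, Col4a1 and Col27a1 in each biopsy of the 13 tumours with several, in CPM on a log axis, with 1 point per biopsy and 1 column per tumour. Mouse 884 shows 1 biopsy far below the others for Col1a1 and Col3a1, and Col27a1 stays low in every biopsy of mice 202 and 881.

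Expressed as SDs of log2 CPM, the spread among biopsies of 1 tumour was 0.833 for Col3a1, 0.841 for Col1a1, 0.699 for Col1a2 and 0.548 for Col4a1. Among the means of the 13 tumours it was 0.717, 0.931, 0.757 and 0.790. Col3a1 thus varied as much between places in a tumour as between tumours, and it was 1 of 7 of the 29 collagens with a mean of at least 1 CPM whose within-tumour SD was the larger (the others were Col6a5, Col8a1, Col7a1, Col12a1, Col4a5 and Col17a1). At the other end, Col27a1 had 0.557 within and 2.27 between tumours, the smallest ratio of the 29 (0.246). Its level was near 3 CPM in all 4 biopsies of mouse 202 (2.73, 4.48, 3.29 and 1.98 CPM). Without the tumours of mice 202 and 881 the values were 0.463 and 0.624. Col15a1 had the smallest spread within a tumour, 0.293, and 0.475 between tumours. Col11a1 was among the 29 only through mouse 899, so its spread is not read further.

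**Figure D5:**
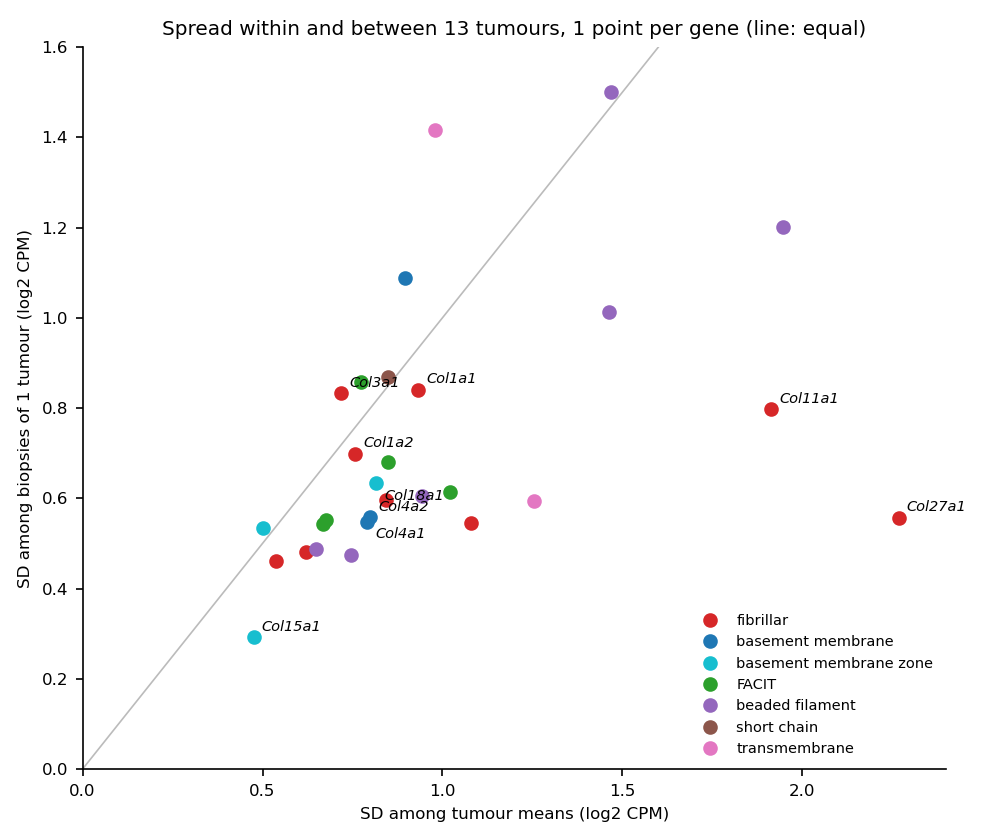
SD of log2 CPM among biopsies of 1 tumour (vertical axis) against SD among the 13 tumour means (horizontal axis), with 1 point per collagen gene for 29 genes, coloured by class, and a line where the values are equal. Col27a1 lies far to the right at 2.27 and 0.557, and Col3a1 lies above the line at 0.717 and 0.833.

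Col1a1, Col1a2 and Col3a1 varied together across lymphomas, as did Col4a1 and Col4a2. Over 31 tumours, log2 CPM of Col1a1 correlated with Col1a2 at Pearson r = 0.963 (Spearman rho = 0.972) and with Col3a1 at r = 0.961 (rho = 0.952), and Col4a1 with Col4a2 at r = 0.978 (rho = 0.953). All 3 had permutation p = 1e-05, the smallest that 100000 resamples can give, and 2e-05 after Benjamini-Hochberg adjustment over the 8 relations computed. Leaving out the 2 tumours farthest from the median gave 0.952, 0.949 and 0.972. Within the 18 single-biopsy and the 13 multi-biopsy tumours r was 0.959 and 0.980, 0.968 and 0.929, and 0.977 and 0.982. Between the classes, Col1a1 and Col4a1 had r = 0.677 (rho = 0.642, permutation p = 6e-05, adjusted 9.6e-05), 0.624 without the farthest tumours, and 0.715 and 0.522 within the 2 kinds of sampling. These genes share each library's depth and scaling.

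Col4a1 also varied with Cdh5, the cadherin of endothelial junctions, at r = 0.883 (rho = 0.824, permutation p = 1e-05, adjusted 2e-05), at 0.846 without the farthest tumours and at 0.910 and 0.853 within the single-biopsy and multi-biopsy tumours. Col1a1 with Pdgfra, a fibroblast receptor, had r = 0.565 (rho = 0.618, permutation p = 0.0007, adjusted 0.0008), 0.425 without mice 266 and 328, and 0.726 and 0.152 within the 2 kinds of sampling. Col1a1 with Cdh5 had r = 0.598 (rho = 0.670, permutation p = 0.00045, adjusted 0.0006; 0.526 without the farthest tumours, 0.678 and 0.406 within) and Col4a1 with Pdgfra r = 0.528 (rho = 0.483, permutation p = 0.00188, adjusted 0.00188; 0.501 without the farthest tumours, 0.709 and 0.149 within). Among biopsies, as deviations from the mean of their own tumour over 54 libraries, Col1a1 moved with Col1a2 (r = 0.918) and Col3a1 (0.861), Col4a1 with Col4a2 (0.971) and Cdh5 (0.817), and Col1a1 with Col4a1 (0.634) and Pdgfra (0.42), whereas for Col1a1 and Col27a1 r was -0.024.

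Genes that make and process collagen changed in both directions. Of 30 tested, 4 were higher and 9 lower in untreated p53-/-, 6 and 12 in treated p53-/-, and 4 and 12 in treated p53+/- lymphoma (edgeR adjusted p under 0.05); without mouse 387 the counts were 8 and 5, 10 and 4, and 8 and 6, where 25.9% and 14.4%, 27.8% and 20.8%, and 27.6% and 18.4% of all genes were higher and lower. Among all genes 23.2% were higher and 17.5% lower, 25.4% and 26.7%, and 25.6% and 25.3% in these contrasts with mouse 387, and the same backgrounds apply to the lists that follow. P4hb, the shared subunit of prolyl 4-hydroxylase, and Adamts3 and Adamts14, which cut procollagen N-ends, were higher in all 3 groups. P4ha3, a catalytic subunit of prolyl 4-hydroxylase, had a median of 10.3 CPM in normal thymus and 0.722, 0.857 and 0.433 CPM in the lymphomas, and fell by 3.48, 3.56 and 3.87 on the log2 scale (adjusted p = 2.95e-05, 2.32e-05 and 1.49e-06). Colgalt2, a collagen galactosyltransferase, fell by 2.96, 3.10 and 4.40 (adjusted p = 0.000298, 8.72e-05 and 7.18e-08).

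Of 14 breakdown genes, 12 were tested, 1 was higher in each contrast and 3, 4 and 4 were lower, against all-gene shares of 17.5%, 26.7% and 25.3% lower. Without mouse 387, 13 were tested, with 2 higher and 2 lower, 1 and 5, and 1 and 4, against 14.4%, 20.8% and 18.4% of all genes lower. Ctsk, a collagen-cutting cathepsin, was higher in all 3 groups. Timp3, a matrix-bound inhibitor of metalloproteinases, had medians of 88.6 CPM in normal thymus and 24.0, 23.7 and 17.6 CPM in the lymphomas, and fell by 2.30, 2.43 and 2.50 (edgeR adjusted p = 9.29e-06, 2.42e-06 and 2.55e-07). Timp4, of the same family, fell by 5.46, 4.68 and 5.12 from a median of 7.66 CPM (adjusted p = 2.73e-06, 1.32e-05 and 2.73e-07). Without mouse 387 Timp3 fell by 1.84, 1.83 and 1.88 and Timp4 by 4.77, 3.84 and 4.13. Of 10 collagen receptors, 9 were tested and 2 were lower in each contrast: the kinase Ddr2, by 2.30, 2.60 and 2.53 (adjusted p = 0.000749, 0.000106 and 3.59e-05), and the integrin chain Itga1, by 1.66, 1.35 and 2.11, of which the treated p53-/- value did not pass without mouse 387 (0.207). Without that mouse 1 receptor (Itga2) was higher and 2 were lower in untreated p53-/-, 0 and 1 in treated p53-/-, and 0 and 2 in treated p53+/- lymphoma. Ddr2 then fell by 1.21, 1.26 and 1.18 (adjusted p = 0.013, 0.0106 and 0.0111), and Itga1 had -1.13, -0.64 and -1.40.

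The next lists hold genes whose products lie with collagen in the matrix, where 17.5%, 26.7% and 25.3% of all genes were lower. Of 16 basement membrane partners, 15 were tested, with 0 higher in any contrast and 6, 4 and 8 lower; without mouse 387, where 14.4%, 20.8% and 18.4% of all genes were lower, they were 0 and 5, 2 and 4, and 0 and 5. Lama3, a laminin chain, fell by 2.48 in untreated p53-/- and 2.87 in treated p53+/- lymphoma (edgeR adjusted p = 0.00793 and 0.000492), and its value of -1.36 in treated p53-/- lymphoma did not pass (0.109). Of 12 fibril partners tested, 0 were higher and 3, 5 and 5 were lower, and without mouse 387 the counts were 1 and 2, 0 and 5, and 0 and 3. Tnxb, the tenascin that binds fibrils, fell by 2.55, 3.49 and 3.53 (adjusted p = 0.000709, 1.27e-05 and 1.5e-06), and Ogn, a small fibril-binding proteoglycan, by 2.20, 3.51 and 3.01 (adjusted p = 0.0122, 0.000157 and 0.000161), the first of which did not pass without mouse 387. Without that mouse Tnxb fell by 1.49, 2.18 and 2.13, and the treated Ogn values were -2.14 (adjusted p = 0.00527) and -1.47 (0.0463).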

How the data were processed

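RNA-seq libraries were made from frozen thymus or lymphoma biopsies. Per the submitters' processing notes, CASAVA 1.8, fastp, STAR 2.7.2b, RSEM 1.1.17 and the mouse build mm10 were used, with no step order given. The authors deposited RSEM expected counts (estimated counts, not normalized) for 51826 genes; 14.3% of the values were not whole and were rounded. Gene positions came from GENCODE M21 (GRCm38), in which 99.6% of gene identifiers were found, and promoter sequences from RefSeq (GRCm38.p6), in which 35 of 44 symbols had a window. Strandedness and batch are not given in the sources used here.

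Counts were summed over the biopsies of a mouse. edgeR 4.0.16 in R 4.3.3 (TMM, filterByExpr, robust quasi-likelihood test) was fitted with labelled sex as a covariate: 1 fit over normal thymus and the 3 lymphoma groups, and 1 over the lymphoma groups. P-values were Benjamini-Hochberg adjusted over all genes tested, with a threshold of 0.05, and measure the spread between mice. CPM are TMM-scaled and log2 CPM used a prior count of 2. DESeq2 1.42.0, limma 3.58.1 voom and mouse 819 joined to the controls were among the alternatives. The scripts were tested on simulated data. Depth per library was 5.01 to 19.72 M counts in normal thymus, 10.01 to 24.42 in untreated p53-/-, 1.03 to 19.53 in treated p53-/- and 3.81 to 26.87 in treated p53+/- lymphoma, so levels under 1 CPM rest on few reads.

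The members and gene lists were chosen with earlier results of these data known. Named genes were, in each class, the up to 4 with the highest mean CPM and any called higher, and in each other list the 2 called genes with the largest mean change. Col5a1, Col5a2, Col5a3, Col2a1, Col6a6, Col11a1, P4hb, Adamts3, Adamts14 and Ctsk were named after their values were seen. 1 gene that the rule names is not reported here. No paired analysis was possible because replicates are mouse numbers that the groups do not share.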

Additional observations from a re-analysis of the deposited data

Results flagged for a closer look

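A level is given here where the highest or lowest mouse of a group stood farther from the next one, relative to the whole range of the group, than Dixon's 95% critical value allows. Gaps and ranges were taken on log2(CPM + 1). Among the 87 combinations of a named collagen and a group of 8 to 10 mice, 24 met this, all of them high values. The critical value flags about 1 in 20 groups of independent, normally distributed values. Whether these values were normally distributed was not tested, and 12 of the 24 belong to 1 library, so that rate is no measure of chance here.

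In normal thymus 12 of them belonged to mouse 387. It had 838 CPM of Col3a1, 446 CPM of Col1a2 and 333 CPM of Col1a1, where the medians of the 7 other normal mice were 51.2, 33.2 and 17.8 CPM. It had 479 CPM of Col4a1, 321 CPM of Col4a2, 15.7 CPM of Col4a5 and 198 CPM of Col15a1. It also had 74.8 CPM of Col14a1, 35.0 CPM of Col16a1, 85.5 CPM of Col6a3, 3.13 CPM of Col8a2 and 4.31 CPM of Col28a1. The other normal mice had medians of 91.7 CPM of Col4a1 and 7.29 CPM of Col6a3.

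Among untreated p53-/- lymphomas 5 belonged to mouse 881, the tumour with high B-cell and low T-cell markers: 294 CPM of Col4a1, 196 CPM of Col4a2, 36.1 CPM of Col18a1, 6.87 CPM of Col25a1 and 4.16 CPM of Col26a1. The medians of the 9 other mice were 55.3, 32.6, 6.34, 0.0704 and 0.151 CPM. In the same group mouse 157 stood apart with 16 CPM of Col7a1, against a median of 2.09 CPM in the others, and mouse 202 with 4.49 CPM of Col28a1, against 0.151 CPM.

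Among treated p53-/- lymphomas mouse 857 had 5.5 CPM of Col20a1, mouse 659 had 28.6 CPM of Col6a5, mouse 490 had 1.07 CPM of Col8a2 and 2.36 CPM of Col25a1, and mouse 497 had 0.58 CPM of Col10a1. The medians of the other mice were 1.09, 1.52, 0.118, 0.0 and 0.0357 CPM.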

How the results depend on the processing

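Results were recomputed with no scaling factors, DESeq2, no filter on low counts, other treatments of sex, other choices of biopsy, limma voom over all biopsies, only the 2 groups compared, mouse 819 joined to the controls, and without each mouse in turn. A cutoff of 1 on the absolute log2 fold change, which is no refit, was counted among the alternatives for called genes. A called gene under it therefore counts as a lost call. Of 48 fold changes of single collagens, 513 values under the alternatives kept direction and call, 62 lost and 16 gained a call and 11 changed sign; without each mouse 1750 kept both, 86 lost and 16 gained a call and 12 changed sign. The number of higher collagens in untreated p53-/- lymphoma, 5, became 2 with single-biopsy tumours only and 9 without mouse 387 (3 to 9 without each mouse; 3 without any of normal mice 615, 624, 818, 961, 978 and 980). The number lower, 3, became 5 without the sex covariate, 7 with voom and 1 with only the 2 groups in the fit (2 to 5 without each mouse; 5 without untreated mouse 157). In treated p53-/- lymphoma the 3 higher became 1 with single-biopsy tumours only and 7 without mouse 387 (2 to 7), and the 6 lower became 10 with no filter and 3 without mouse 387 (3 to 7). In treated p53+/- lymphoma the 3 higher became 6 without mouse 387 (2 to 6), and the 11 lower became 5 with single-biopsy tumours only and 6 without mouse 387 (6 to 14). Col4a1 in treated p53-/- lymphoma (-0.03) became 0.01 without scaling factors, 0.015 without the sex covariate, 0.13 with sex from Xist and Y-linked genes, 0.17 without mice 328, 869 and 870, 0.18 with the lowest-numbered biopsy, 0.067 with voom, 0.021 with only the 2 groups and 0.57 without mouse 387 (-0.14 to 0.57 without each mouse). Without mouse 387 Col4a1 in untreated p53-/- became 0.063 (-0.84 to 0.063), Col4a2 there 0.016 (-0.89 to 0.016) and Col4a2 in treated p53-/- 0.37 (-0.35 to 0.37). Chosen after seeing the data, a fibrillar sum without Col27a1 moved the median log2 ratio to basement membrane collagen in treated p53+/- lymphoma from 2.57 to 1.6. The causes were not tested beyond what each alternative changes. Counts of collagens called between lymphoma groups stayed at 0 in every setting run. Genes under 1 CPM, Col4a4 and Col8a2 among them, rest on few reads in libraries of 1.03 to 5 M counts.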

Other observations

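The p53+/- normal thymus of mouse 819 belonged to none of the 4 groups compared and joined the controls only in 1 alternative fit. Its collagen levels were 138.9 CPM summed over the fibrillar genes, 149.9 CPM over the type IV genes and 25.7 CPM for Col27a1, inside the ranges of the p53+/+ normal mice other than 387. Its fat markers summed to 105.5 CPM, below the 700 to 4098 CPM of those 7 mice.

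Some type VI and transmembrane collagens differed widely between tumours of one group. Col6a5, a type VI chain, had a median of 1.74 CPM over the 31 lymphomas and reached 28.5 CPM in an untreated p53-/- tumour, 28.6 CPM in a treated p53-/- tumour and 17.1 CPM in a treated p53+/- tumour. Its highest biopsy exceeded its lowest by a median of 16.7 times within a tumour. Col23a1, a transmembrane collagen, ranged from 0.169 to 9.98 CPM over the lymphomas, against 1.74 to 5.13 CPM in normal thymus, with a median of 2.10 times between the highest and the lowest biopsy of a tumour.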
